A study of Mus musculus with 9 samples.

Results

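The genes described here are 9 rows of chromosome 12, of 54838 genes in the deposited matrix, whose RNA separated LXR DKO libraries that carry a transgene from LXR DKO libraries without it. They were chosen by their RPKM values, which differed between these genotypes, most of them with transgenic close to wild type. The listed rows are the coding genes Iah1, Pxdn, Sptb, Adck1, Gm16381 and Gm2001, and Zfp125, Gm9259 and ENSMUSG00000116815, which GENCODE M21 annotates as pseudogenes. Since the values in these libraries chose the genes, their levels and differences are given as a description, without a test.

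RNA was sequenced from mouse corona radiata, the granulosa-derived cells that lie against the oocyte. Adult mice had received PMSG, which drives follicle growth, and hCG, which triggers ovulation; the labels add "J4" without saying what it means. The transgenic group is LXR DKO with TG-AMH-LXRb (3 libraries). The LXR DKO group lacks both liver X receptors, by knockout, and has no transgene (3 libraries), and the WT group carries neither alteration (3 libraries). All transgenic libraries are thus also LXR DKO. The labels give neither the strain, the promoter and coding sequence of the transgene, its place in the genome, nor which exons of the receptor genes were deleted. They do not state that each library is a different animal, so a p-value here measures spread between libraries and perhaps not between animals.

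Oxysterols, oxidised forms of cholesterol, activate the liver X receptors. Together with a retinoid X receptor they bind spaced repeats of the motif AGGTCA and switch on genes of cholesterol efflux and fatty acid synthesis. In the ovary, granulosa and cumulus cells handle the cholesterol used for steroid hormones and pass metabolites to the oocyte. The 2 receptor genes, Nr1h3 on chromosome 2 and Nr1h2 on chromosome 7, are not on the chromosome described here. The coding genes of the list belong to different pathways. Iah1 is an esterase of the GDSL family. Pxdn, peroxidasin, is a heme peroxidase of the extracellular matrix that cross-links collagen IV in basement membranes. Sptb is the beta-spectrin of red cells, which joins actin to the membrane skeleton. Adck1 belongs to the atypical kinases of mitochondria.

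The values are RPKM, reads per kilobase of exon, scaled to the reads of the library, so a level can be compared between genes. The library scale lay between 31086718 and 47038045 reads, and 3 reads of a gene with 1 kb of exons correspond to 0.0638 to 0.0965 RPKM. Nr1h2 stood at 4.83, 5.28 and 6.70 RPKM in transgenic, at 3.57, 2.85 and 3.03 in LXR DKO, and at 45.7, 39.7 and 39.7 in WT. Nr1h3 ranged over 0.395 to 0.819 RPKM in transgenic, 0.713 to 1.08 RPKM in LXR DKO and 3.50 to 5.72 RPKM in WT, while 10 of the 12 granulosa markers passed the filter on low values. Some libraries stood apart through markers of other cells, given as the mean log2(RPKM + 1) over a list. The 15 oocyte markers averaged 3.44 in LXR DKO 1 and 5.42 in WT 1, against 0.435 to 1.70 in the other libraries. The 10 oviduct epithelium markers averaged 5.25 to 5.76 in transgenic, 3.97 to 4.83 in LXR DKO, 3.17 and 3.14 in WT 1 and WT 2, and 5.67 in WT 3. The 12 erythroid markers averaged 4.31 in WT 3 and 1.38 to 3.20 elsewhere. The 10 macrophage markers averaged 3.15 to 3.51 in transgenic and 4.12 to 4.57 in LXR DKO, with WT at 3.80 to 4.63. In such bulk samples, fewer cells of a type and less RNA per cell cannot be told apart.

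Few genes of the matrix separated transgenic from LXR DKO. limma on log2(RPKM + 1), with Benjamini-Hochberg adjustment, tested 16422 genes and called 19 of them in transgenic minus LXR DKO, which is 0.116%; 9 were higher in transgenic (0.0548%) and 10 were lower (0.0609%). Chromosome 12 held 9 calls among 667 tested genes (1.35%), and these 9 are the listed genes, as the way they were chosen fixes. Transgenic and LXR DKO libraries did not overlap in any of the 9, which the choice fixes too, and in 18.3% of all tested genes. Gm16381 and Gm2001 have identical transcripts, so the 9 rows hold 8 distinct ones. The other 10 calls were spread over chromosomes 6, 9, 11, 17 and 18. On chromosome 12 the genes nearest to the threshold of 0.05 from outside were Adi1 and Acp1 (below). The count of 9 comes from a fit with a spread per gene over all 9 libraries, and it changed when libraries were left out. It was 7, 11 and 22 without WT 1, WT 2 and WT 3. It was 2, 0 and 0 without LXR DKO 1, LXR DKO 2 and LXR DKO 3, and 1, 1 and 2 without transgenic 1, transgenic 2 and transgenic 3. The same rule called 1739 genes in LXR DKO minus WT (10.6%) and 1949 in transgenic minus WT (11.9%). LXR DKO 1, one of the libraries with oocyte RNA, lay on the LXR DKO side in all 9 genes. The choice of genes fixes this, and the part of oocyte RNA was not tested. The 3 comparisons share libraries, so their values for a gene are set side by side and are not independent.

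**Figure D1:**
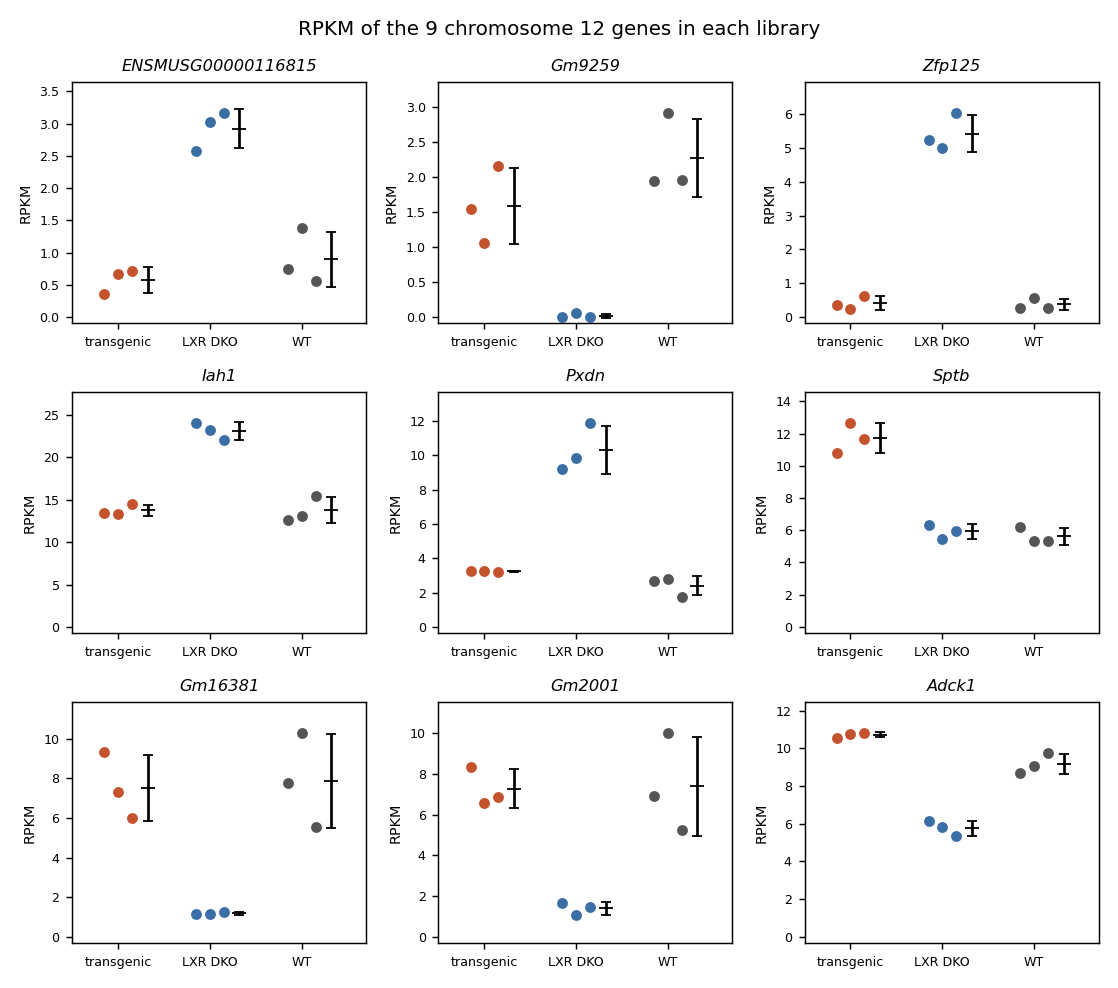
RPKM of each of the 9 listed genes in the 9 libraries (points; vertical axis linear, RPKM), with the mean and SD of 3 libraries beside each genotype. In every panel the transgenic and LXR DKO libraries do not overlap; WT lies with LXR DKO for Sptb, between the others but nearer transgenic for Adck1, just below transgenic for Pxdn, and overlaps transgenic for the other 6 genes.

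Iah1, Pxdn and Adck1 are coding genes in which LXR DKO stood outside both other genotypes. None has a near copy, meaning another transcript at least 90% identical over at least 50% of the length. Iah1 (chr12:21316389-21323819, plus strand) stood at 13.4, 13.3 and 14.5 RPKM in transgenic, 24.1, 23.3 and 22.0 in LXR DKO, and 12.6, 13.1 and 15.5 in WT. Every LXR DKO library was above every other library, and transgenic and WT overlapped. The difference on the log2(RPKM + 1) scale was -0.71 ± 0.09 (SE) in transgenic minus LXR DKO, 0.71 in LXR DKO minus WT and 0.00 in transgenic minus WT. Mean RPKM in transgenic was 0.594 times that in LXR DKO.

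Pxdn (chr12:29937608-30017658, plus strand) stood at 3.24, 3.25 and 3.23 RPKM in transgenic, 9.20, 9.84 and 11.9 in LXR DKO, and 2.69, 2.77 and 1.77 in WT. The 3 LXR DKO libraries were again the highest, and the 3 transgenic libraries were nearly equal and lay just above the WT libraries. Transgenic minus LXR DKO was -1.41 ± 0.14, LXR DKO minus WT was 1.74 ± 0.14 and transgenic minus WT was 0.33 ± 0.14. The LXR DKO mean was 4.28 times the WT mean.

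Adck1 (chr12:88360554-88461724, plus strand) ran the other way, at 10.6, 10.8 and 10.8 RPKM in transgenic, 6.12, 5.84 and 5.33 in LXR DKO, and 8.69, 9.05 and 9.77 in WT. The LXR DKO libraries were the lowest, the WT libraries were intermediate and the transgenic libraries were the highest, with no overlap between any pair of genotypes. The difference in transgenic minus LXR DKO was 0.80 ± 0.08, LXR DKO minus WT was -0.59 ± 0.08 and transgenic minus WT was 0.21 ± 0.08. The macrophage and oviduct means also separated transgenic from LXR DKO. WT 3, with the highest macrophage mean of 4.63, had 15.5 RPKM of Iah1, below the lowest LXR DKO library at 22.0, and 1.77 RPKM of Pxdn, the lowest of all libraries. WT 1 and WT 2, with the lowest oviduct means, had 12.6 and 13.1 RPKM of Iah1, also below LXR DKO. For Adck1, WT 3 was the highest WT library and had the highest oviduct mean of WT. The part of macrophage and oviduct RNA in Iah1, Pxdn and Adck1 was not tested.

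The promoters of Iah1 and Pxdn are shown as the starts of 2 genes that were high together in LXR DKO, from RefSeq on GRCm38.p6, with the 50 bases after the annotated start in capitals and the 250 bases before it in lower case. The Iah1 window is chr12:21316142-21316441 and the Pxdn window chr12:29937786-29938085, both on the plus strand.
Iah1: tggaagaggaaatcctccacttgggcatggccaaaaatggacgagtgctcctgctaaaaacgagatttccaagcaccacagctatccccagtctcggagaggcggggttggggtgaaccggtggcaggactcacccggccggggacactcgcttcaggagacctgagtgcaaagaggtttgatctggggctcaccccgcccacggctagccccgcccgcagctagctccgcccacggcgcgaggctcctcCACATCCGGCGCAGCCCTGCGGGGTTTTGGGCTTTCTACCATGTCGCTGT
Pxdn: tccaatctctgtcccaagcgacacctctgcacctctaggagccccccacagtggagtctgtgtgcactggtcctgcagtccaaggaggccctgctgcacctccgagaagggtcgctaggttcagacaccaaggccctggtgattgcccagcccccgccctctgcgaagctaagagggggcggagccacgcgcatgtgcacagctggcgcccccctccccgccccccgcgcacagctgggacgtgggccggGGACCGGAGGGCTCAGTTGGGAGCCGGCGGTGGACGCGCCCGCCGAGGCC
RefSeq promoters were matched for 6 of the 9 listed genes, 7 windows in all. None of the 7 held AGGTCA on either strand, a motif found in 16.3% of 32851 promoters of the same length. None held the pair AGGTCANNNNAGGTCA on either strand, which 0.0152% of all promoters held. These letters are not in these windows, and nothing follows from that about binding elsewhere.

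Zfp125 showed the largest difference of the list on the log2(RPKM + 1) scale. It carries the name of a zinc finger protein but is a transcribed pseudogene in GENCODE M21 (chr12:20877084-20921262, minus strand). It stood at 0.354, 0.248 and 0.635 RPKM in transgenic, 5.22, 4.99 and 6.03 in LXR DKO, and 0.278, 0.573 and 0.280 in WT. In reads this was 51, 24 and 67 in transgenic, 681, 519 and 647 in LXR DKO, and 38, 66 and 41 in WT. Transgenic and WT were thus at a low level with overlapping libraries, and all 3 LXR DKO libraries lay far above. Zfp125 passed the filter on low values only through LXR DKO. On the log2(RPKM + 1) scale transgenic minus LXR DKO was -2.19 ± 0.15, LXR DKO minus WT was 2.22 ± 0.15 and transgenic minus WT was 0.03 ± 0.15; the mean RPKM in LXR DKO was 14.4 times that in WT. With a pseudocount of 0.1, transgenic minus LXR DKO was -3.49. The pseudogenes 3110053B16Rik and Gm10478 overlap Zfp125 on the same strand, so their reads may be shared; in no library did they exceed 0.421 and 1.36 RPKM.

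ENSMUSG00000116815 (Gm49760 in GENCODE M21, a processed pseudogene at chr12:18648214-18649998, plus strand) was also high in LXR DKO. It stood at 0.351, 0.667 and 0.710 RPKM in transgenic, 2.58, 3.03 and 3.17 in LXR DKO, and 0.751, 1.38 and 0.560 in WT. The 3 LXR DKO libraries, with 181 to 195 reads, were above all others, which had 29 to 91 reads. Transgenic minus LXR DKO was -1.32 ± 0.18, LXR DKO minus WT was 1.07 and transgenic minus WT was -0.25. The pseudocount of 1 compresses the difference of so low a gene: mean RPKM in transgenic was 0.197 times that in LXR DKO, and transgenic minus LXR DKO was -2.20 with a pseudocount of 0.1. Its transcript has 1 near copy, Gm49328, 90.9% identical.

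Gm9259 (unprocessed pseudogene, chr12:19824891-19830372, minus strand) was almost without reads in LXR DKO. It stood at 1.54, 1.06 and 2.15 RPKM in transgenic, 0, 0.0520 and 0 in LXR DKO, and 1.94, 2.91 and 1.96 in WT. It had 41, 19 and 42 reads in transgenic, 0, 1 and 0 in LXR DKO, and 49, 62 and 53 in WT. The ratio of pooled reads, corrected for library scale, was 101 in transgenic over LXR DKO (95% interval 17.7 to 4015, exact and for counting error only). Transgenic minus LXR DKO was 1.32 ± 0.18 on the log2(RPKM + 1) scale, which compresses a gene this low, LXR DKO minus WT was -1.67 and transgenic minus WT was -0.35. GENCODE M21 has 43 near copies of its transcript, all on chromosome 12 and up to 97.0% identical, and how the authors counted reads that fit several of them is not given in the sources used here. Summed over those 43 copies, RPKM was 9.10, 7.52 and 8.27 in transgenic, 6.56, 4.75 and 5.77 in LXR DKO, and 10.2, 10.8 and 10.9 in WT. The copies together were thus lowest in LXR DKO as well, but far from 0.

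Gm16381 and Gm2001 are a pair of coding genes on the minus strand, at chr12:87644118-87644620 and chr12:87841837-87842339. Their transcripts of 503 bases are identical base for base, so the 2 rows may divide 1 set of reads and are not separate measurements. Their open reading frame of 222 bases differs at 14 bases (93.7% identity) from that of Ubl5 on chromosome 9, which encodes a ubiquitin-like protein that takes part in pre-mRNA splicing. Both reading frames are shown to let the resemblance be seen; the differing bases are in capitals.
Gm16381 and Gm2001: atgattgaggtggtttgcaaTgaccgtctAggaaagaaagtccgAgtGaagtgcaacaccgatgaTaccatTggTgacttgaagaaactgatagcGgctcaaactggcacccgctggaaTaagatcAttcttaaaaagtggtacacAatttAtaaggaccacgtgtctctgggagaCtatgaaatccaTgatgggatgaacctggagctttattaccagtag
Ubl5: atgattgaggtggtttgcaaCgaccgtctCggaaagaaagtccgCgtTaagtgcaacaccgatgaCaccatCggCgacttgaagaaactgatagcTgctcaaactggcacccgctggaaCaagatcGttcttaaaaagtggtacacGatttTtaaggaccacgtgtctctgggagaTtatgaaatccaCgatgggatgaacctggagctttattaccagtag
Gm16381 stood at 9.31, 7.29 and 5.98 RPKM in transgenic, 1.14, 1.13 and 1.27 in LXR DKO, and 7.77, 10.3 and 5.54 in WT. Gm2001 stood at 8.37, 6.59 and 6.86 RPKM in transgenic, 1.66, 1.07 and 1.44 in LXR DKO, and 6.91, 10.04 and 5.24 in WT. In both rows the LXR DKO libraries were the lowest, with 18 to 35 reads each, and transgenic and WT overlapped. The pair differed alike: transgenic minus LXR DKO was 1.95 ± 0.20 for Gm16381 and 1.79 ± 0.20 for Gm2001, and transgenic minus WT was -0.04 and 0.01. Ubl5 itself, printed above, stood at 5.57 to 6.58 RPKM in transgenic, 5.25 to 5.95 RPKM in LXR DKO and 7.37 to 9.42 RPKM in WT, so transgenic and LXR DKO overlapped at that gene.

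Sptb differed from the other listed genes in which genotype stood apart. Sptb (chr12:76580488-76710547, minus strand) stood at 10.8, 12.7 and 11.6 RPKM in transgenic, 6.35, 5.47 and 5.97 in LXR DKO, and 6.23, 5.33 and 5.32 in WT. All 3 transgenic libraries were above all 6 others, and LXR DKO and WT overlapped. Transgenic minus LXR DKO was 0.88 ± 0.10, transgenic minus WT was 0.94 ± 0.10 and LXR DKO minus WT was 0.07 ± 0.10. Transgenic had 1.98 times the mean RPKM of LXR DKO and 2.08 times that of WT. Sptb is a red cell gene, and the erythroid markers averaged 1.95 to 2.27 in transgenic and 1.93 to 3.20 in LXR DKO, with WT at 1.38 to 4.31. WT 3, with the highest erythroid mean and an oviduct mean within the transgenic range, had 5.32 RPKM of Sptb, about equal to WT 2 at 5.33. The part of red cell and oviduct RNA in Sptb was not tested.

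To describe how often a genotype stands apart in this way, a gene was counted where all 3 libraries of a genotype lay on one side of all 6 others and its mean was at least 0.5 from each other mean on the log2(RPKM + 1) scale. This rule was chosen after values had been seen, and its counts carry no test. LXR DKO stood apart in 93 of the 16422 genes (0.566%), transgenic in 345 (2.1%) and WT in 993 (6.05%). On chromosome 12 LXR DKO stood apart in 20 of 667 genes (3.00%), 14 of them low and 6 high in LXR DKO, while on the other chromosomes it did in 73 of 15754 (0.463%) and on none of the other autosomes or X in over 1.27%. The listed genes supplied 8 of the 20. Without them the share was 12 of 658 (1.82%). By whole chromosome, transgenic and WT did not have this distribution. Transgenic stood apart in 1.50% of chromosome 12 genes, against 0.692% to 3.85% on each other autosome and X. WT did in 4.95%, against 3.98% to 8.41%.

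**Figure D2:**
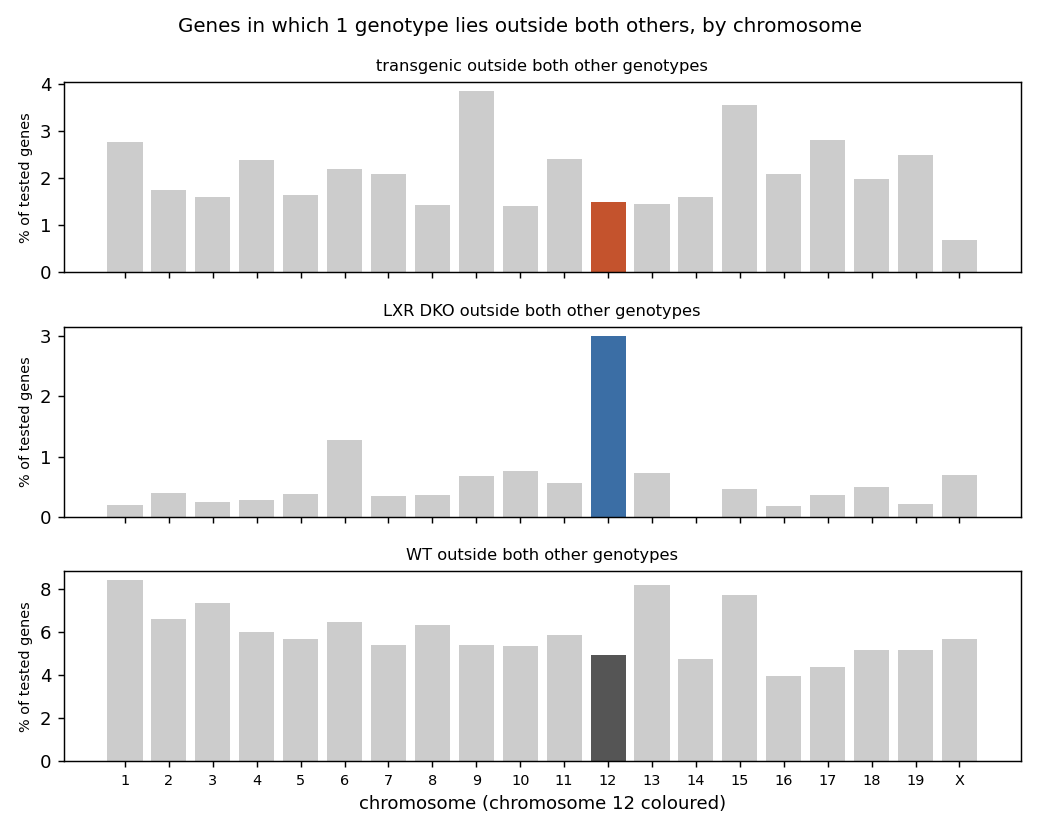
Share of tested genes (%, linear axes of different height) on each autosome and X in which transgenic, LXR DKO or WT stood apart from both other genotypes; chromosome 12 is coloured. LXR DKO stood apart in 3.00% of chromosome 12 genes and in at most 1.27% on any other chromosome shown, while chromosome 12 lies within the range of the others for transgenic and WT.

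The 20 genes were not spread evenly along the chromosome. The first stretch, from Gm49331 to Acp1 (chr12:17902389-30911589, 13.009 Mb), held 47 tested genes, and LXR DKO stood apart in 9 of them (19.1%), 6 high and 3 low. It includes the listed genes ENSMUSG00000116815, Gm9259, Zfp125, Iah1 and Pxdn. The second stretch, from Gm16381 to Adck1 (chr12:87644118-88461724, 0.818 Mb), held 30 tested genes, and LXR DKO stood apart in 9 (30%), all low. It includes Gm16381, Gm2001 and Adck1. All of these 9 but Adck1 have a near copy among the others (below), so they are not 9 separate measurements. Of the 590 tested genes on the rest of the chromosome LXR DKO stood apart in 2, Lrrn3 and Gm6722 (0.339%). Transgenic stood apart in 3 of the 47 genes of the first stretch, in 0 of the second and in 7 of the 590, against 2.1% of all tested genes. The ends of both stretches were set by such genes, so these shares describe where they lie and are not a test. Sptb lies outside both. Of 21 other tested genes within 1 Mb of it, LXR DKO stood apart in 0 and transgenic, the genotype that stands apart in Sptb, in 1. This was Rab15, a small GTPase of endocytic recycling, 87.4 kb from Sptb. It stood at 3.88, 4.47 and 5.64 RPKM in transgenic, 1.30, 2.90 and 1.44 in LXR DKO, and 1.13, 0.638 and 2.42 in WT. The transgenic libraries were the highest, and LXR DKO and WT overlapped. In each genotype the library highest in Rab15 also had the highest oviduct mean, at 5.76 in transgenic 3, 4.83 in LXR DKO 2 and 5.67 in WT 3. The part of oviduct RNA in Rab15 was not tested. Rab15 did not pass in transgenic minus LXR DKO (1.01 ± 0.29, limma, adjusted p = 0.360) and passed in transgenic minus WT (1.30 ± 0.29, adjusted p = 0.0269), and it is named after its values were seen. The call in transgenic minus WT was lost with no filter on low values (limma, adjusted p = 0.0736), without the oocyte-rich libraries (0.0797), and without WT 1, WT 2 or any 1 transgenic library (0.0607 to 0.0981).

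**Figure D3:**
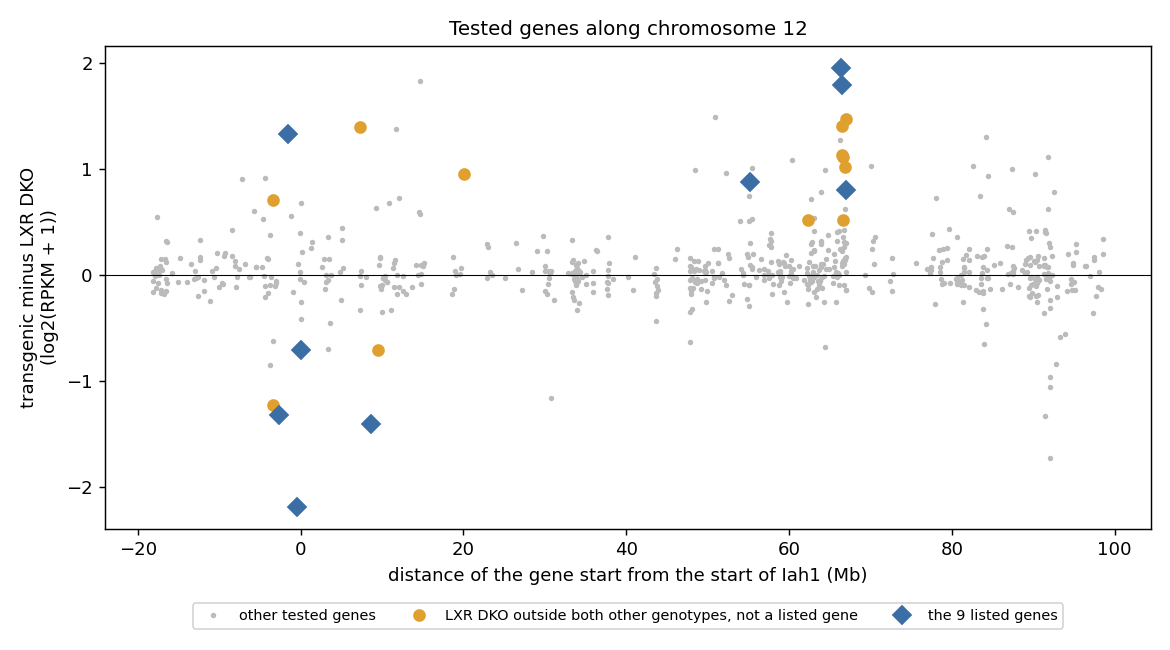
Difference in log2(RPKM + 1), transgenic minus LXR DKO, of the 667 tested genes of chromosome 12 (vertical axis) against the distance of the gene start from that of Iah1 in Mb (horizontal axis). The listed genes are diamonds, and other genes in which LXR DKO stood apart are circles; outside 2 gatherings, that around Iah1 and that of the second stretch at 66.3 to 67.0 Mb, lie Lrrn3, Sptb and Gm6722.

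The unlisted genes of the first stretch include 2 coding genes without a near copy that fell just outside the threshold in transgenic minus LXR DKO. Adi1, acireductone dioxygenase of the methionine salvage pathway, stood at 88.2, 81.1 and 88.9 RPKM in transgenic, 27.2, 35.3 and 34.3 in LXR DKO, and 44.5, 50.8 and 80.3 in WT. All 3 LXR DKO libraries were below the other 6, and the WT libraries spread widely up to the lower end of transgenic. The difference was 1.39 ± 0.20 in transgenic minus LXR DKO (limma, adjusted p = 0.051) and -0.80 in LXR DKO minus WT, which passed (adjusted p = 0.037). Acp1, a low molecular weight protein tyrosine phosphatase, stood at 5.68, 5.94 and 5.02 RPKM in transgenic, 10.2, 9.39 and 9.60 in LXR DKO, and 5.45, 5.52 and 6.76 in WT. All 3 LXR DKO libraries were above the other 6, and transgenic and WT overlapped. The difference was -0.72 ± 0.10 in transgenic minus LXR DKO (limma, adjusted p = 0.051) and 0.64 ± 0.10 in LXR DKO minus WT, which passed (adjusted p = 0.00705). Under several alternatives both crossed the threshold in transgenic minus LXR DKO, among them a fit of only these genotypes, with adjusted p = 0.00509 for Adi1 and 0.0280 for Acp1.

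**Figure D4:**
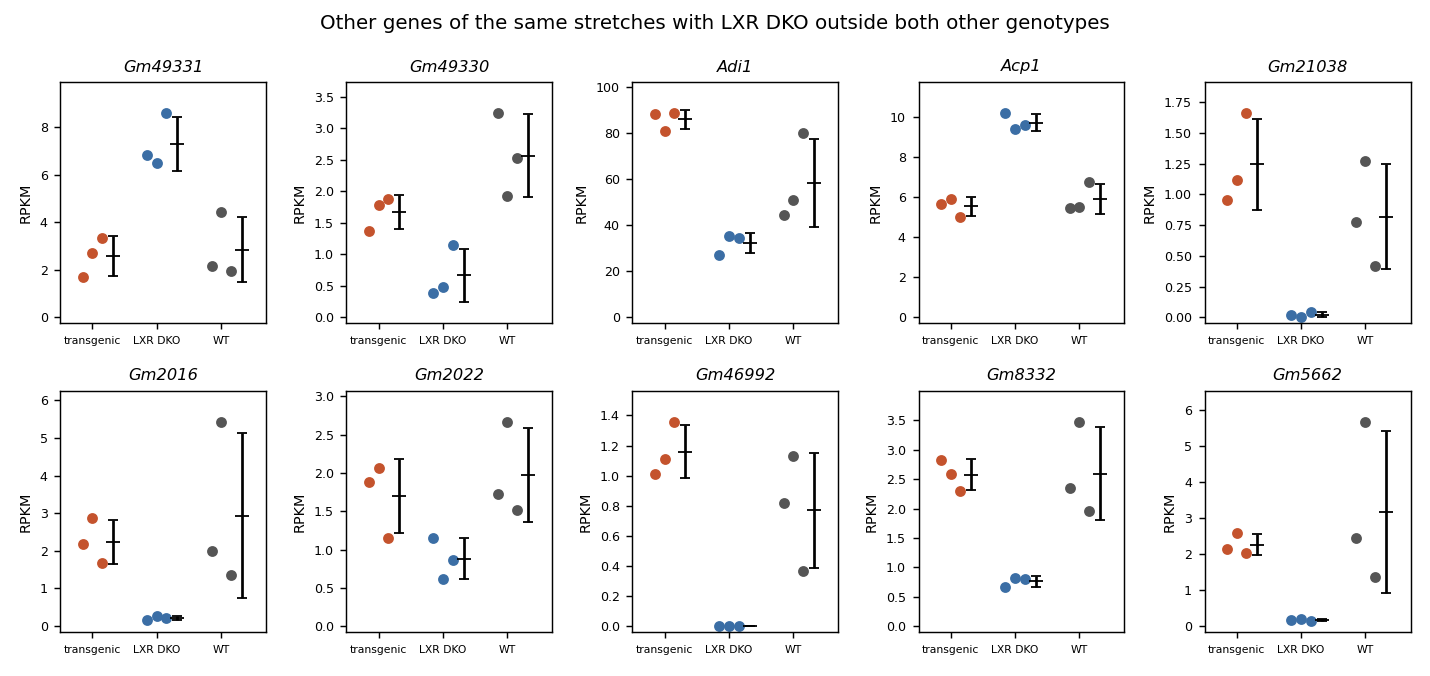
RPKM of 10 unlisted genes of both stretches in which LXR DKO stood apart, by library (points), with the mean and SD of 3 libraries beside each genotype. LXR DKO is high in Gm49331 and Acp1 and low in the other 8, and is listed at 0 in all 3 libraries for Gm46992.

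Near copies were common among the genes in which LXR DKO stood apart. Of the 9 in the second stretch Adck1 alone had none, and of the 12 unlisted genes of the chromosome Adi1, Acp1 and Lrrn3 had none either. Some were near copies of each other. Beside Gm16381 and Gm2001, these were Gm2016 and Gm5662 (99.3% identical), Gm21038 and Gm46992 (99.1%), and Gm2022 and Gm8332 (98.9%). The counts of genes in which LXR DKO stood apart, in the second stretch and on the chromosome, thus hold such sequences more than once. Gm8332, 95.2% identical to the translation initiation factor gene Eif1a, stood at 2.83, 2.59 and 2.30 RPKM in transgenic, 0.658, 0.824 and 0.800 in LXR DKO, and 2.35, 3.48 and 1.95 in WT. Gm46992, a pseudogene with 7 near copies, stood at 1.01, 1.11 and 1.36 RPKM in transgenic, at 0 reads in all 3 LXR DKO libraries, and at 0.818, 1.13 and 0.367 RPKM in WT. Gm5662, which has 5 near copies, stood at 2.15, 2.59 and 2.03 RPKM in transgenic, 0.181, 0.195 and 0.142 in LXR DKO, and 2.44, 5.68 and 1.36 in WT. LXR DKO was below every other library in each of these genes, and transgenic and WT overlapped. None passed in transgenic minus LXR DKO (limma, adjusted p = 0.0661, 0.0661 and 0.196), and all passed in LXR DKO minus WT (adjusted p = 0.00656, 0.0220 and 0.0132). Values that rest on near copies are uncertain, and the part of read assignment in them was not tested.

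No other gene of chromosome 12 passed the test of transgenic minus LXR DKO, as the way the listed genes were chosen fixes. Within 1 Mb of a listed gene lay 87 other tested genes. limma called 0 of them in transgenic minus LXR DKO, which the choice fixes too. With voom on reads worked back from the RPKM values, 1 was called. At an unadjusted p under 0.05 there were 20 (23%), against 8.1% of all tested genes. Among unlisted genes of the first stretch there were 11 of 42 (26.2%), of the second 7 of 27 (25.9%), and of the rest of the chromosome 47 of 589 (7.98%). The stretches were drawn from values of the same libraries, so these shares carry no test. Among the neighbours and in the second stretch, some genes are near copies of each other, so their sequences are counted more than once. Cpsf3, the endonuclease that cleaves pre-mRNA before polyadenylation, lies 1.3 kb from Iah1. It stood at 24.5, 24.4 and 25.5 RPKM in transgenic, 26.0, 23.7 and 27.3 in LXR DKO, and 20.8, 22.4 and 24.9 in WT, and transgenic and LXR DKO overlapped (difference -0.04 ± 0.09, limma, adjusted p = 0.936). Adam17, a protease that sheds growth factor precursors from the cell surface, overlaps Iah1 by 311 bases on the opposite strand. It stood at 30.5, 31.5 and 30.8 RPKM in transgenic, 39.4, 38.4 and 47.6 in LXR DKO, and 35.6, 33.0 and 24.6 in WT. LXR DKO was again above all others, by less than at Iah1 (transgenic minus LXR DKO -0.42 ± 0.14, limma, adjusted p = 0.459). Without a stated strand setting, reads of Adam17 and Iah1 in the overlap cannot be told apart.

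The nearest tested genes on either side of Sptb, Plekhg3 and Churc1, differed by 0.09 ± 0.14 and 0.05 ± 0.14 in transgenic minus LXR DKO, and those of Pxdn by -0.02 ± 0.12 (Gm6989) and 0.63 ± 0.12 (Tmem18; limma, adjusted p = 0.131). Tmem18, which lies 566.8 kb from Pxdn, stood at 7.25, 7.50 and 6.33 RPKM in transgenic, 3.78, 3.79 and 5.04 in LXR DKO, and 4.69, 4.06 and 4.61 in WT. As at Sptb, the transgenic libraries were the highest and the other genotypes overlapped. The nearest tested genes of Gm2001 were Gm21038, 0.7 kb away, and Gm2016, 31.7 kb away, in both of which LXR DKO stood apart. Gm21038, a pseudogene with 7 near copies, stood at 0.952, 1.12 and 1.66 RPKM in transgenic, 0.0172, 0 and 0.0419 in LXR DKO, and 0.772, 1.27 and 0.415 in WT. Gm2016, with 5 near copies, stood at 2.18, 2.86 and 1.69 RPKM in transgenic, 0.162, 0.271 and 0.213 in LXR DKO, and 2.01, 5.43 and 1.36 in WT. In both the LXR DKO libraries were the lowest, and transgenic minus LXR DKO was 1.13 ± 0.19 and 1.40 ± 0.33 (limma, adjusted p = 0.0984 and 0.228), past the threshold in neither. The other nearest genes differed less: Gm48153 and Gm21559 beside Gm16381 by 0.25 ± 0.17 and 0.08 ± 0.11, Gm9231 beside ENSMUSG00000116815 and Gm9259 by -0.08 ± 0.10, Mrto4-ps1 beside Zfp125 by -0.16 ± 0.11 and Gm2139 beside Adck1 by -0.01 ± 0.19. Gm6190, 5.9 kb from Adck1, differed by -0.15 ± 0.11. Asap2, 69.2 kb from Zfp125, differed by 0.10 ± 0.15. Gm48667, a neighbour of Gm9259, stood at 0.621, 0.231 and 1.27 RPKM in transgenic, 0, 0.430 and 0 in LXR DKO, and 2.29, 2.91 and 3.21 in WT. There WT was the highest genotype, and transgenic lay with LXR DKO, with overlapping libraries.

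Genes with the most similar pattern over the 9 libraries were found by Pearson's r of log2(RPKM + 1), a description of 9 points in 3 genotypes. The 3 genes closest to Zfp125 were Pxdn, A2m on chromosome 6 and Iah1, with r of 0.972, 0.966 and 0.963. Listed genes were chosen from these same values, so a high r among them is largely fixed and is no support. For Pxdn the closest gene was A2m on chromosome 6, a protease inhibitor, with r of 0.992; it stood at 3.78, 4.06 and 3.97 RPKM in transgenic, 14.3, 22.4 and 21.8 in LXR DKO, and 2.92, 2.77 and 1.90 in WT. For Iah1 the closest were Acp1 (r of 0.966) and Tlr7 on X, a receptor for single-stranded RNA (0.965). For Gm16381 and Gm2001 they were each other (0.991), Gm8332 (0.990 and 0.982) and Mttp on chromosome 3, which loads lipid onto lipoproteins (0.982 with both). Sptb went with Rps2, a ribosomal protein gene on chromosome 17 (0.980), which stood at 36.3, 38.4 and 37.4 RPKM in transgenic, 21.5, 21.9 and 20.1 in LXR DKO, and 19.7, 19.8 and 19.9 in WT. Gm9259 went with Gm6472 on X (0.970), and ENSMUSG00000116815 with Gm49331 of the same stretch (0.969).

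No gene of the lists set beside the coding genes passed the test in transgenic minus LXR DKO. Of 16 tested basement membrane genes, set beside Pxdn, limma called 0, with 3 at an unadjusted p under 0.05, as were 8.1% of all tested genes, and voom called 0; the median difference was 0.05, against 0.01 over all tested genes. Col4a1, which encodes a collagen IV chain that peroxidasin cross-links, stood at 144 to 157 RPKM in transgenic, 162 to 167 RPKM in LXR DKO and 75.4 to 141 RPKM in WT. The transgenic libraries lay below those of LXR DKO without overlap, with a difference of -0.13 ± 0.21 in transgenic minus LXR DKO (limma, adjusted p = 0.918). In LXR DKO minus WT, 1 of the 16 genes rose, the laminin chain gene Lamb2, by 0.49 ± 0.10 (limma, adjusted p = 0.0201), in a comparison that called 10.6% of all tested genes and called 3.47% of all as higher.

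Of 11 tested membrane skeleton genes, set beside Sptb, limma and voom, which could take 10 of them, each called 0 in transgenic minus LXR DKO and 0 in LXR DKO minus WT, with 1 and 2 genes at an unadjusted p under 0.05 in limma, against 8.1% and 26.5% of all tested genes; the median of the first comparison was 0.06. Sptan1, the alpha chain that pairs with beta-spectrins, stood at 17.1 to 19.9 RPKM in transgenic and 16.0 to 18.9 RPKM in LXR DKO, with overlapping libraries. Of 20 genes of coenzyme Q synthesis and the mitochondrial inner membrane, set beside Adck1, both tools called 0 in both comparisons, with 0 and 1 at an unadjusted p under 0.05 in limma, and the median in transgenic minus LXR DKO was -0.05. Adck2 and Adck5, of the same kinase family as Adck1, differed by 0.03 ± 0.11 and -0.10 ± 0.08 in that comparison. Of 9 tested ester hydrolases, set beside Iah1, both tools called 0 in transgenic minus LXR DKO, with 1 at an unadjusted p under 0.05 in limma and a median of -0.04. Siae, a sialic acid esterase of that list, rose in LXR DKO minus WT by 0.41 ± 0.09 (limma, adjusted p = 0.0271).

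Transgene, line and any DNA that differs between the lines make the same split of these libraries. Whether the levels of the listed genes follow the transgene or linked DNA therefore cannot be told apart with these data.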

How the data were processed

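RNA libraries of 3 genotypes, 3 each, were analysed from 1 deposited matrix of RPKM values, made by the authors, with 1 column per library and 0 unused value columns. Columns were assigned by name; the 3 transgenic ones were matched through TG and the number, as 1 letter deviates from the descriptions. Per the submitters' processing notes, the build was mm10 and the tools were HISAT2 2.1.0 and HTSeq 0.5.4p5, beside cutadapt and DESeq2 1.2.8, with no role stated. For annotation, strand setting and reads with several matches, the sources used here give nothing. Reads were worked back from the RPKM values and GENCODE M21 exon lengths: all 9 values were whole to within 0.02 reads for 37146 of 37863 genes (98.1%). Each library held between 29822412 and 44049966 reads in genes, and 3 reads were taken as the floor. No 2 libraries of a group agreed within sampling noise. Coordinates are 1-based, from GENCODE M21 on mm10.

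The filter asked for RPKM of 1 or more in 3 or more libraries, which kept 16422 genes, all 9 listed ones among them. Zfp125 passed only through the LXR DKO libraries, where it was high, and failed when any of these was left out. ENSMUSG00000116815 reached 1 RPKM only in LXR DKO and in WT 2. They were fitted on log2(RPKM + 1), with a pseudocount of 1, by genotype in limma 3.58.1 under R 4.3.3, with a mean-variance trend and Benjamini-Hochberg adjustment over all tested genes, threshold 0.05. Near copies were found with blastn 2.17.0 among GENCODE M21 transcripts. The limma fit was checked, for transgenic minus LXR DKO only, on simulated log values with known differences.

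The listed genes and the gene lists were chosen with earlier results of these data known. Besides the listed genes, the text names by rule the nearest tested gene on each side, genes among the 3 with the highest Pearson r (that of Adck1 is not reported here), list genes past the threshold, and Nr1h2 and Nr1h3; other genes, the rule for a genotype that stands apart and both stretches were chosen after their values were seen. Alternatives changed the pseudocount, filter, scaling, samples, window, replicate block and model, and left out libraries.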

Additional observations from a re-analysis of the deposited data

How the results depend on the processing

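The count of genes called in transgenic minus LXR DKO, 19, was 31 with quantile normalization, 93 with only the 2 genotypes in the fit, and 4 to 156 without 1 library (4 without LXR DKO 3, 156 without WT 3). That of LXR DKO minus WT, 1739, was 1032 with no filter, 807 with only the 2 genotypes, 1101 without the oocyte-rich libraries LXR DKO 1 and WT 1, and 606 to 2082 without 1 library. That of transgenic minus WT, 1949, was 1096 with no filter, 1201 without the oocyte-rich libraries, and 641 to 3442 without 1 library. The 9 calls on chromosome 12 became 14 with a pseudocount of 0.1, 22 with only the 2 genotypes, 9 with voom, 6 without the oocyte-rich libraries, and 0 to 22 without 1 library. The 0 calls among neighbours within 1 Mb became 5 with a pseudocount of 0.1, 2 with no filter, 1 with quantile normalization, 1 with median-of-ratios scaling, 7 with only the 2 genotypes, 1 with voom, 3 without the oocyte-rich libraries, and 0 to 6 without 1 library. The 20 chromosome 12 genes in which LXR DKO stood apart became 10 with a margin of 1 log2, 29 with 0.3, and 18 to 26 without 1 library. Leaving out the oocyte-rich libraries, the margins and the count of genes that stood apart were chosen after seeing the data. The cause of these shifts was not tested.

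Same-numbered libraries correlated in their deviations by -0.29 to 0.67, and differently numbered ones by -0.55 to 0.53. Whether replicate numbers pair the samples cannot be settled by these values. With the replicate block 8 genes were called in transgenic minus LXR DKO, 2 of them on chromosome 12 and 0 among neighbours. Of 468 recomputed values of the listed genes 432 moved by less than the spread between libraries and 36 moved further. Of the 156 in transgenic minus LXR DKO, 0 changed sign. The choice of genes without overlap between these genotypes largely fixes that, so it is no support. Zfp125 had a value in 13 alternatives, against 18 for most listed genes, because it failed the filter in the others. Among the listed genes Gm9259 had the fewest reads in LXR DKO, 1 over the 3 libraries.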
